A study of Mus musculus with 14 samples.

Results

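Interleukins and their receptors were read out of bulk RNA-seq of mouse plexiform neurofibromas (PNs), benign tumors of peripheral nerve, and of control dorsal root ganglia (DRGs). A row of the count table belonged to this gene group if its symbol started with Il followed by a digit, which 83 of 24062 genes did. Control tissue was DRG with nerve of *Nf1fl/fl* mice (n = 3), and PNs came from *DhhCre;Nf1fl/fl* mice (n = 11). All mice carried the floxed *Nf1* alleles, were of one mixed background (C57BL/6, I-129 and FVBN) and received no drug. *Dhh* drives Cre in the Schwann cell lineage, so only cells of that lineage lose *Nf1* in this model. By MRI volumes taken at 7 and 9 months of age, 5 PNs were slow growing (a change below 5 mm3) and 6 were fast growing (an increase above 35 mm3). Age at collection is given as 9 months in one description of the experiment and as 7 months in another.

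Interleukins are secreted proteins by which immune, stromal and barrier cells signal to each other, and most act through receptors of several chains that families share. IL-6 family cytokines signal through gp130, the product of *Il6st*. IL-1, IL-33 and the IL-36 cytokines each need the accessory chain encoded by *Il1rap*. Receptors for IL-2, IL-7, IL-15 and IL-21 share the common gamma chain, encoded by *Il2rg*, and are best known from lymphocytes. In nerve, gp130 cytokines act on Schwann cells and neurons after injury, and IL-34 is a ligand of the macrophage receptor *Csf1r*.

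Between 9596773 and 17594164 reads were counted on genes per library, so 3 counts correspond to between 0.167 and 0.313 CPM (TMM-scaled CPM, the counts of a gene relative to the library's total); this floor covers counting error only. Each library carries the label of its own DRG or PN, no label says whether animals were pooled, and p-values measure the spread between these libraries. *Nf1* was at 129 to 227 CPM in controls and 225 to 294 CPM in PNs (log2 fold change 0.54 ± 0.16, standard error; edgeR, Benjamini-Hochberg adjusted p = 0.0215); these counts cover the whole gene in all cells, so they do not check the labels. Summed sensory neuron markers (11 genes) reached at least 1303 CPM in 13 libraries and 20.2 CPM in fast-growing PN 1191. Control DRG3 held 8.66 CPM of summed T and NK cell markers (11 genes), against 397 CPM in DRG4 and 230 CPM in DRG5. Skeletal muscle markers (15 genes) summed to 11647 to 41172 CPM in controls and 83.2 to 13345 CPM in PNs, and fat markers (13 genes) to 4564 to 7126 CPM in controls and 23.1 to 3210 CPM in PNs. Each control library therefore differs from most PNs in muscle transcripts, and from every PN in the fat sum, as well as in genotype. A fit with muscle and fat scores can hardly separate fat content from group. A call lost or a sign changed in such a fit therefore cannot be assigned to either. A difference in library preparation cannot be told apart from one in tissue. In bulk samples, fewer cells of a type and less RNA per cell cannot be told apart.

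Most interleukin ligands were near or below detection, whereas most receptors were measured well. No library held a count for *Il17a*, *Il20*, *Il22*, *Il1f6*, *Il1f10* or *Il11ra2*; *Il11ra2* is a near copy of *Il11ra1*, and its 50-base windows are all shared with *Gm13305*. A further 12 members had 1 to 10 counts over all 14 libraries, among them *Il2*, *Il13*, *Il23a* and *Il31*, and 13 had 11 to 100, among them *Il4*, *Il5*, *Il6*, *Il10* and *Il12a*. The other 52 members had more than 100 counts, and 30 of them more than 1000. *Il6*, the prototype IL-6 family cytokine, had 50 counts in all, with 0.343, 0.367 and 0.521 CPM in controls and at most 0.676 CPM in PNs, and it was not tested in any comparison. *Il6st* alone supplied 26.0% to 46.4% of all interleukin-gene counts in controls and 46.9% to 74.3% in PNs. Per kilobase of the longest transcript, the highest group means in controls were those of *Il2rg* (48.1 CPM per kb) and *Il6st* (40.6), with *Il2rg* high in DRG4 and DRG5 but not in DRG3. In slow-growing PNs they were *Il6st* (86.5), *Il33* (22.4) and *Il16*, followed by *Il34* (15.5), and in fast-growing PNs *Il6st* (107.5), *Il33* (32.4), *Il1rap* (23.4) and *Il34* (21.5).

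**Figure D1:**
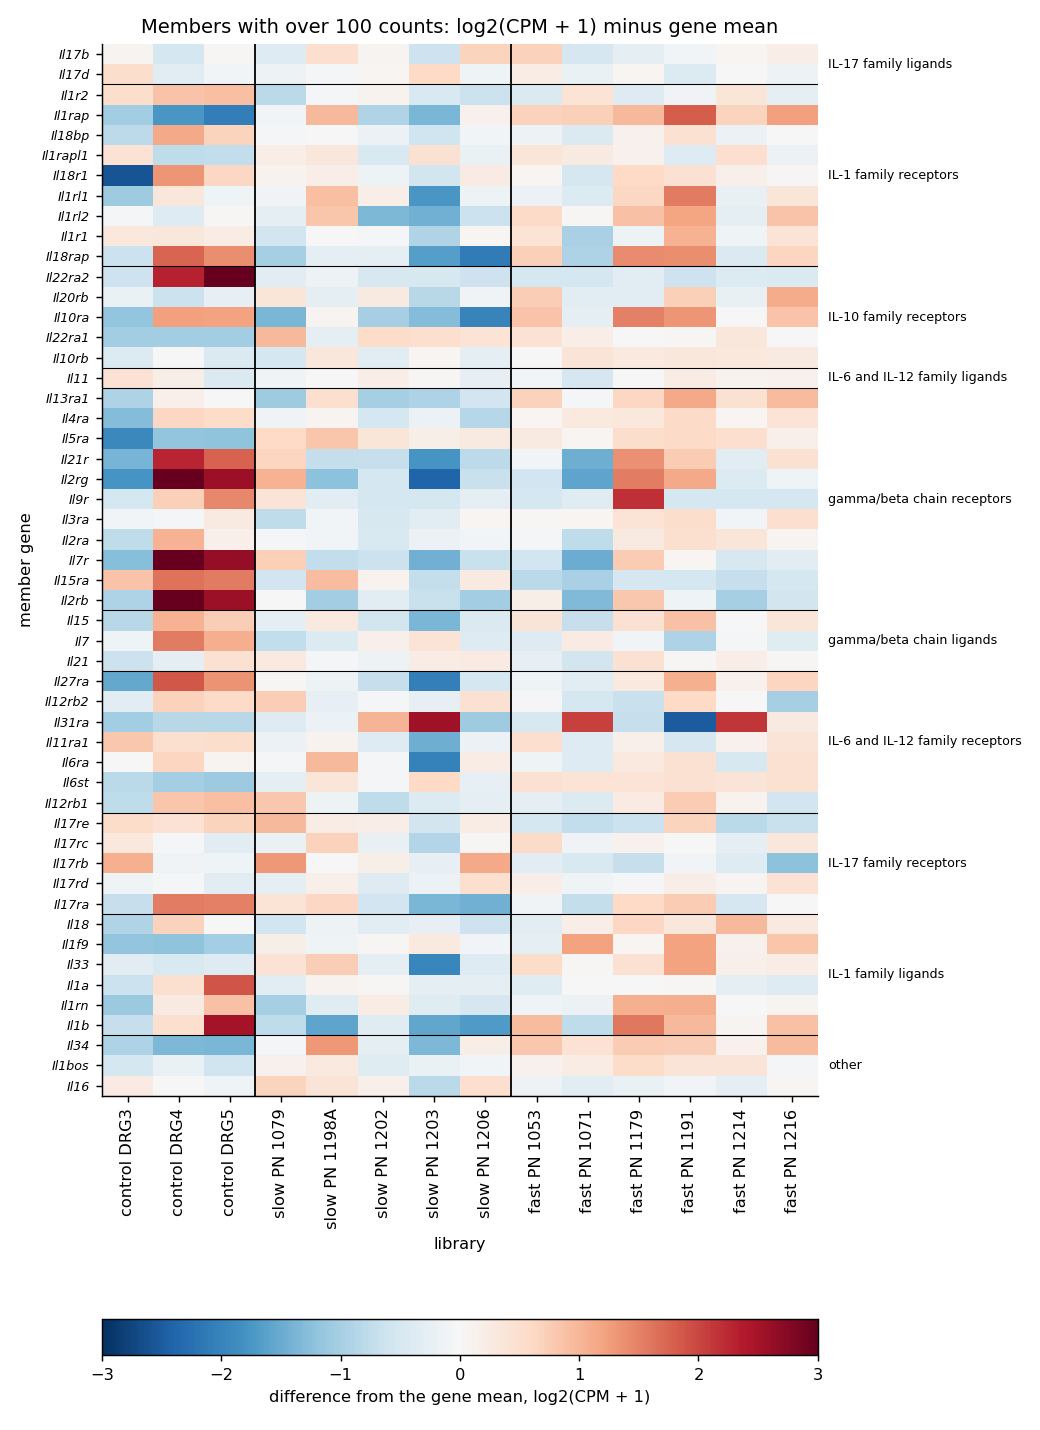
Heat map of the 52 members with more than 100 counts (rows, grouped by family role) in the 14 libraries (columns, with lines between control, slow-growing and fast-growing groups); color is log2(CPM + 1) minus the gene's mean over libraries. *Il6st*, *Il5ra*, *Il1f9* and *Il22ra1* are blue in the 3 controls, and *Il7r*, *Il2rb*, *Il2rg* and *Il21r* are red in DRG4 and DRG5 but not in DRG3.

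To ask which members differ between PN and control tissue, all 11 PNs were compared with the 3 controls. Of 83 members, 51 passed the low-count filter and 13 were called at an adjusted p under 0.05, 7 higher and 6 lower in PNs, which is 25.5% of those tested and close to the 26.3% called over all 16283 genes. At an unadjusted p under 0.05 there were 18 (35.3%, against 38.9% of all genes). Higher calls made up 13.7% of the members tested and 12.9% of all genes, and lower calls 11.8% and 13.4%. The members called higher were *Il6st*, *Il1rap*, *Il34*, *Il1f9*, *Il5ra*, *Il22ra1* and *Il1bos*, and those called lower were *Il2rg*, *Il15ra*, *Il7r*, *Il2rb*, *Il7* and *Il1r2*. The median log2 fold change was −0.18 over the members tested and 0.10 over all genes, and 20 of the 51 members lay above 0, against 55.7% of all genes. In 5 of the 51 (9.80%, against 17.6% of all genes) no PN overlapped any control: 4 lay higher (7.84%, against 8.51%) and 1 lower (1.96%, against 9.13%). By family, the receptors of the common gamma, IL-13 and common beta chain group held 1 higher and 4 lower call among 11 tested, the IL-1 family receptors 1 and 1 among 9, the IL-6 and IL-12 family receptors 1 and 0 among 7, the IL-10 family receptors 1 and 0 among 4, and the 5 tested IL-17 family receptors none. Nearest to a call without one were *Il12a*, a subunit of IL-12 and IL-35, *Il11ra1* and *Il17ra*, the shared IL-17 receptor chain (edgeR, Benjamini-Hochberg adjusted p = 0.0604, 0.0879 and 0.0892).

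*Il6st* was the member with the most counts in all and was higher in every PN than in every control. It was at 392, 342 and 323 CPM in controls DRG3, DRG4 and DRG5 and at 563, 886, 679.9, 1041 and 582 CPM in the slow-growing PNs 1079, 1198A, 1202, 1203 and 1206, the order used throughout. The fast-growing PNs ranged only from 904 to 958 CPM, with a median of 934. Thus no PN overlapped a control, and the fast-growing PNs were close together while the slow-growing PNs spread on both sides of them. The log2 fold change against controls was 1.25 ± 0.21 for all PNs (edgeR, Benjamini-Hochberg adjusted p = 0.000673). *Il6ra*, which binds IL-6, and *Il11ra1*, which binds IL-11, were not called. *Il6ra* measured 23.7 to 37.8 CPM in controls and 5.04 to 47.6 CPM in PNs (log2 fold change −0.20 ± 0.41, edgeR, Benjamini-Hochberg adjusted p = 0.747). *Il11ra1* measured 12.4 to 15.7 CPM and 2.47 to 12.7 CPM (log2 fold change −0.77 ± 0.32, edgeR, Benjamini-Hochberg adjusted p = 0.0879), with 60.0% of its windows shared with *Gm13305*. *Osmr*, the oncostatin M receptor chain that pairs with gp130, was higher in PNs (log2 fold change 1.10 ± 0.27; edgeR, Benjamini-Hochberg adjusted p = 0.00884). The edgeR call of *Il6st* was lost once scores of muscle and fat genes entered the fit, where the log2 fold change was 0.64 (Benjamini-Hochberg adjusted p = 0.259). It was also lost with DRG4 and DRG5 left out, where the value stayed at 1.10 with fewer samples (edgeR, Benjamini-Hochberg adjusted p = 0.137).

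*Il1f9*, *Il5ra* and *Il22ra1* were, with *Il6st*, the members called higher in slow-growing and in fast-growing PNs alike, so the promoters of these 4 genes are shown. Each sequence is from RefSeq (GRCm38.p6), runs from 250 bases before to 50 bases after the transcript start on the gene's strand, and has matches to 3 searched motifs in capitals. The motifs were a STAT site (TTCNNNGAA), an AP-1 site (TGANTCA) and the NF-kB consensus, on both strands. The promoter of *Il6st*, on the plus strand at chr13:112463820-112464119, held no match.
Il6st: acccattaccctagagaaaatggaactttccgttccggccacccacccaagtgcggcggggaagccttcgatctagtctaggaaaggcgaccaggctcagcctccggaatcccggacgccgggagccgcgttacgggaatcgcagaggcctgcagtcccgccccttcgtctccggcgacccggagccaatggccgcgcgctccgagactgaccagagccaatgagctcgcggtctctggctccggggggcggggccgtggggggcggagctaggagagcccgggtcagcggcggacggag
The promoter of *Il1f9*, on the plus strand at chr2:24186226-24186525, held 1 STAT match.
Il1f9: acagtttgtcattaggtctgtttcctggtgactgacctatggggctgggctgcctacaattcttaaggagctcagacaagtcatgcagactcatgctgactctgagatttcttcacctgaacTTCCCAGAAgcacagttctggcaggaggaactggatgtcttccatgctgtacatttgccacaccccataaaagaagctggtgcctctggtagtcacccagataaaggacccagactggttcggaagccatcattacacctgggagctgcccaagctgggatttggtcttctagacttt
The promoter of *Il5ra*, on the minus strand at chr6:106748988-106749287, held 1 AP-1 match.
Il5ra: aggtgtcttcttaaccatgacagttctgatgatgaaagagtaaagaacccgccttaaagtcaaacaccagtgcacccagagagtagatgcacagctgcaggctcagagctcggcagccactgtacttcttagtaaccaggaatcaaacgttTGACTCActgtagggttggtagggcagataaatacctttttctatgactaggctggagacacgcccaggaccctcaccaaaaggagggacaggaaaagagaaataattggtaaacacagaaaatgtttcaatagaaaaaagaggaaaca
The promoter of *Il22ra1*, on the plus strand at chr4:135727909-135728208, held 1 AP-1 match (first capitals) and 1 NF-kB match (second capitals).
Il22ra1: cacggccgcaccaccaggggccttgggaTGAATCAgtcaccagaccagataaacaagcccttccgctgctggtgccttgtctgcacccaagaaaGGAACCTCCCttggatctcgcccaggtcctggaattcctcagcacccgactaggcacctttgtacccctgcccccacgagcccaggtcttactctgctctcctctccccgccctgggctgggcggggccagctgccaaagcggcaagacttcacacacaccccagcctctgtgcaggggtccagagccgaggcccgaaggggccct
Among all 32851 promoters of this length, 8.30% held the STAT letters, 7.81% the AP-1 letters and 8.46% the NF-kB consensus. Counted per gene over any of its promoters, 16.7%, 21.2% and 12.1% of the 66 members with a promoter held a match, against 9.55%, 8.97% and 9.55% of all 27025 genes with one.

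*Il1f9* is the older symbol of the gene for IL-36 gamma, an IL-1 family cytokine best known from epithelia; it lies on chromosome 2 from 24186476 to 24193568. Its level was 6.95, 6.87 and 7.92 CPM in controls and 19.4, 15.5, 17.7, 21.2 and 16.0 CPM in slow-growing PNs. In fast-growing PNs it ranged from 13.8 to 41.2 CPM with a median of 25.1, with PNs 1071 and 1191 highest. No PN overlapped a control. The log2 fold change over all PNs was 1.65 ± 0.37 (edgeR, Benjamini-Hochberg adjusted p = 0.00497). The *Il1f9* call was lost with muscle and fat scores in the fit (1.34; edgeR adjusted p = 0.237) and without DRG4 and DRG5 (1.72; 0.220), and was kept without any one library.

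*Il5ra*, the IL-5 receptor alpha chain known from eosinophils and some B cells, had 1.89, 3.85 and 3.75 CPM in controls. It was at 15.6, 18.6, 13.2, 11.4 and 12.3 CPM in slow-growing PNs and from 10.4 to 15.5 CPM, with a median of 13.4, in fast-growing PNs. Every PN was thus above every control, and the 2 PN groups overlapped. The log2 fold change over all PNs was 2.09 ± 0.25, with the lowest p among the members (edgeR, Benjamini-Hochberg adjusted p = 4.69e-05).

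*Il22ra1*, the ligand-binding chain of the IL-22 receptor, normally an epithelial gene, had no count in any control and 9 to 40 counts in every PN. In CPM this was 3.04, 0.676, 2.04, 1.92 and 1.73 in slow-growing PNs and 1.08 to 1.78, with a median of 1.25, in fast-growing PNs. Against the floor of 3 counts over the control group (0.0933 CPM), PNs were at least 17.1-fold higher, slow-growing PNs at least 20.2-fold and fast-growing PNs at least 14.5-fold (edgeR, Benjamini-Hochberg adjusted p = 8.54e-05 for all PNs). Its co-receptor chain *Il10rb*, which many IL-10 family receptors share, averaged 20.4 ± 3.85 CPM over the controls and 26.6 ± 5.68 CPM over the PNs (SD; edgeR, Benjamini-Hochberg adjusted p = 0.216); of its transcript windows, 19.5% are shared with the overlapping gene *Gm21970*. *Oaz1*, a gene that nearly all cells use, had a like pattern, with 0 to 1 counts in controls and 40 to 92 in PNs. In all, 11 genes, *Il22ra1* among them, had no count in any control and at least 5 in every PN, with the most counts in the vomeronasal receptor gene *Vmn2r55* (6.44 to 12.6 CPM in PNs), and 1 gene showed the reverse. The part of a difference between control and PN library preparation in *Il22ra1* and *Il5ra* was not tested. In PNs versus controls both kept their call under every alternative and with any one library left out, and they were the 2 members still called with muscle and fat scores in the fit.

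**Figure D2:**
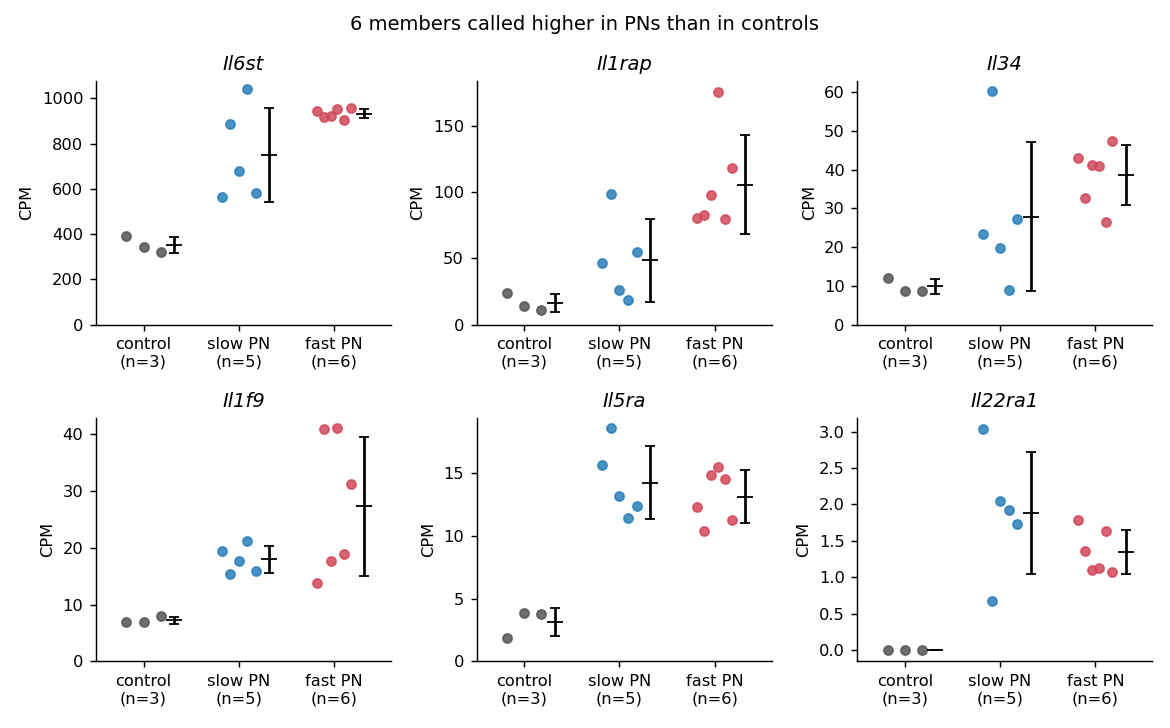
CPM (linear axes) of 6 members called higher in PNs, one point per library, with the group mean and SD in black beside the points. *Il6st*, *Il1f9*, *Il5ra* and *Il22ra1* do not overlap between controls and PNs, whereas *Il1rap* and *Il34* overlap through slow-growing PN 1203 (18.6 and 8.88 CPM).

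In the IL-1 family, the shared accessory receptor was higher in PNs and the ligand-binding receptors *Il1r1* and *Il1rl1* were not called. *Il1rap* was at 23.7, 14.1 and 10.9 CPM in controls, at 46.3, 98.3, 26.1, 18.6 and 54.5 CPM in slow-growing PNs, and from 79.3 to 175 CPM, with a median of 90.1, in fast-growing PNs. Slow-growing PN 1203 fell within the control range and the other 10 PNs lay above it. The log2 fold change over all PNs was 2.28 ± 0.59 (edgeR, Benjamini-Hochberg adjusted p = 0.0119). Without DRG4 or without DRG5 the value was 2.19 and 2.06, with an adjusted p of edgeR of 0.0625 and 0.0761. The *Il1rap* value was 0.52 with muscle and fat scores in the fit (edgeR adjusted p = 0.721) and 1.74 without DRG4 and DRG5 (0.434). Up to 552 exonic bases of *Il1rap* overlap *Gm20319* on the opposite strand. *Il1r1*, the signalling IL-1 receptor, averaged 50.3 ± 2.40 CPM over the controls and 41.8 ± 18.3 CPM over the PNs (SD; edgeR, Benjamini-Hochberg adjusted p = 0.561), and *Il1rl1*, the IL-33 receptor, 5.02 ± 2.69 and 7.25 ± 4.77 CPM (edgeR, Benjamini-Hochberg adjusted p = 0.555). *Il1r2*, the decoy receptor for IL-1, was low and lower in PNs: 1.72, 2.38 and 2.50 CPM in controls against 0.0759, 0.827, 1.02, 0.366 and 0.193 CPM in slow-growing PNs and a median of 0.647 CPM in fast-growing PNs, with all 11 PNs below every control (log2 fold change −1.69 ± 0.55; edgeR, Benjamini-Hochberg adjusted p = 0.0349). The *Il1r2* call was lost without any one of the 3 controls (edgeR adjusted p = 0.0508, 0.121 and 0.140), without PN 1216 and under the length and GC correction, at values from −1.84 to −1.44. It was also lost with muscle and fat scores in the fit (−1.10; edgeR adjusted p = 0.616) and without DRG4 and DRG5 (−1.32; 0.544).

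Among IL-1 family ligands, *Il33*, an alarmin that stromal and endothelial cells release, differed from controls in fast-growing PNs. It was at 45.7, 42.1 and 44.1 CPM in controls and at 79.5, 98.1, 48.6, 14.2 and 44.7 CPM in slow-growing PNs. Fast-growing PNs ranged from 59.8 to 136 CPM with a median of 74.1, all above the controls. The log2 fold change was 0.84 ± 0.26 for fast-growing PNs (edgeR, Benjamini-Hochberg adjusted p = 0.0364) and 0.67 ± 0.43 for all PNs (edgeR, Benjamini-Hochberg adjusted p = 0.270). The fast-growing call was lost without any one of the 3 controls or PN 1053, and in one fit over all libraries, at values from 0.81 to 0.89. It was also lost with muscle and fat scores in the fit, at 1.29 (edgeR adjusted p = 0.847). Without DRG4 and DRG5 the value was 0.84. Summed fibroblast markers (7 genes, with *Dcn* the largest) were higher in the same group: 1765 to 3411 CPM in controls, 1139 to 5101 CPM in slow-growing and 4430 to 9222 CPM in fast-growing PNs, with 1139 CPM in PN 1203, which also had the lowest *Il33*; the part of fibroblast number in *Il33* was not tested. Of these 7 genes, 5 were called higher in fast-growing PNs, whereas *Dpt* was called lower (52.0 to 82.7 CPM in controls and 0.614 to 35.7 CPM in fast-growing PNs) and *Pi16*, not called there, was at 19.6 to 37.5 and 1.43 to 21.4 CPM. *Il1b*, the inflammasome-processed cytokine, was at 1.97, 5.77 and 26.3 CPM in controls, at 1.82, 0.601, 2.76, 0.641 and 0.482 CPM in slow-growing PNs, and from 1.84 to 13.3 CPM with a median of 8.09 in fast-growing PNs. Control DRG5, with the highest *Il1b*, also had 1387 CPM of summed neutrophil markers (7 genes) against 46.2 to 241 CPM in the other 13 libraries. Elsewhere the match was loose. DRG3 had a higher neutrophil sum than DRG4 (200 and 102 CPM) but less *Il1b* (1.97 and 5.77 CPM), whereas PN 1179 was highest among PNs in both (241 and 13.3 CPM). The part of neutrophils in *Il1b* was not tested. Over all PNs *Il1b* was not called (log2 fold change −1.32 ± 0.86; edgeR, Benjamini-Hochberg adjusted p = 0.278), and the value turned to 0.23 without DRG5 and to 1.20 without DRG4 and DRG5. In one fit over all libraries *Il1b* was called lower in PNs (edgeR adjusted p = 0.0362), and with muscle and fat scores in the fit it was at −3.72, not called (0.252). *Il1bos*, an antisense transcript that overlaps exons of *Il1b* by 25 bases, was higher in PNs: 0.172, 0.458 and 0.104 CPM in controls against 0.306 to 1.46 CPM (log2 fold change 1.76 ± 0.55; edgeR, Benjamini-Hochberg adjusted p = 0.0305), at levels near the floor. The *Il1bos* call was lost without DRG3, DRG5 or PN 1214 (edgeR adjusted p up to 0.158), with limma-voom (0.0530), without DRG4 and DRG5 (2.27; 0.253) and with muscle and fat scores in the fit, where its value was 0.71 (0.675); it ran from 1.43 to 2.54 over libraries left out.

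*Il34*, a ligand that *Csf1r* and *Ptprz1* bind, was at 12.2, 8.80 and 8.76 CPM in controls and at 23.3, 60.3, 19.9, 8.88 and 27.2 CPM in slow-growing PNs. In fast-growing PNs it ranged from 26.4 to 47.5 CPM with a median of 41.0. All fast-growing PNs and 4 of 5 slow-growing PNs lay above the controls. The log2 fold change over all PNs was 1.75 ± 0.45 (edgeR, Benjamini-Hochberg adjusted p = 0.0105). It was 1.67 both without DRG4 and without DRG5, with an adjusted p of edgeR of 0.0577 and 0.0634. With muscle and fat scores in the fit the *Il34* value was 0.79 (edgeR adjusted p = 0.473), and 0.56 in fast-growing PNs (0.902); without DRG4 and DRG5 it was 1.46 over all PNs (0.396). *Ptprz1* was also higher in PNs (log2 fold change 1.96 ± 0.47; edgeR, Benjamini-Hochberg adjusted p = 0.00739), whereas *Csf1r* (92.8 ± 46.3 CPM in controls, 45.3 ± 44.8 in slow-growing and 140.2 ± 56.9 in fast-growing PNs, SD) and the other Csf1r ligand *Csf1* were not called (edgeR, Benjamini-Hochberg adjusted p = 0.968 and 0.776). Of 36 partners of interleukin signalling outside the symbol rule, 34 were tested and 7 were called (20.6%, against 26.3% of all genes), 3 higher, with *Osmr* and *Ptprz1* among them, and 4 lower, which were *Csf2rb2*, *Csf2rb* and the IL-1 receptor kinase genes *Irak2* and *Irak1*. *Csf2rb*, the common beta chain with which *Il5ra* signals, was lower by 1.69 ± 0.54 on the log2 scale (edgeR, Benjamini-Hochberg adjusted p = 0.0316), in the opposite direction to *Il5ra*.

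Of 11 tested receptors of the common gamma chain, IL-13 and common beta chain group, 45.5% were called, against 26.3% of all genes. The group was not tested as a set. *Il7r*, *Il2rb*, *Il2rg* and *Il15ra* were called lower in PNs and *Il5ra* was called higher. The other 6 were not called, among them *Il2ra* (log2 fold change −0.38) and *Il4ra* (−0.14). *Il7r*, the IL-7 receptor alpha chain, was at 1.03, 54.9 and 29.8 CPM in DRG3, DRG4 and DRG5, at 7.06, 1.95, 2.14, 0.824 and 2.12 CPM in slow-growing PNs, and from 0.751 to 7.39 CPM, with a median of 2.74, in fast-growing PNs. *Il2rb*, the beta chain for IL-2 and IL-15, was at 1.11, 42.9 and 23.0 CPM in controls, at 3.04, 0.977, 2.25, 1.56 and 0.964 CPM in slow-growing PNs, and from 0.614 to 6.07 CPM, with a median of 2.23, in fast-growing PNs. *Il2rg*, the common gamma chain, was at 4.03, 137 and 100.1 CPM in controls and from 2.20 to 48.3 CPM in PNs. For these 3 genes, DRG3 lay inside the range of the PNs while DRG4 and DRG5 lay above all of them. Their log2 fold changes over all PNs were −3.21 ± 0.69, −3.33 ± 0.65 and −2.24 ± 0.77 (edgeR, Benjamini-Hochberg adjusted p = 0.00366, 0.00206 and 0.0463). The *Il7r* call was lost without DRG4 (−2.32; edgeR adjusted p = 0.0634), that of *Il2rg* without DRG4 (−1.61; 0.268), DRG5 or any one of 7 PNs and with no filter or the length and GC correction, and all 3 were lost with limma-voom. With DRG4 and DRG5 left out, a fit chosen after seeing the data in which the single control is assumed to vary like the PNs, the same values were 1.58, 0.99 and 2.08, none called; with muscle and fat scores in the fit they were −3.62, −4.05 and −3.06, none called either. *Il21r*, *Il27ra*, *Il18r1* and *Il18rap* had the same order of controls, with 0.429 to 1.72 CPM in DRG3 and 9.48 to 26.2 CPM in DRG4 and DRG5, and none was called. *Gm20489* overlaps *Il2rg* on the same strand and 42.0% of the windows of *Il2rg* are shared with it, so its counts are uncertain.

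The T and NK cell markers split the controls in the same way, with 8.66, 397 and 230 CPM, and so did the B cell markers (4 genes), with 3.86, 140 and 188 CPM; in PNs they ranged from 11.5 to 297 CPM and from 1.84 to 107 CPM. By these sums the match was partial among PNs. PN 1079, with the highest T and NK cell sum among PNs, had the highest *Il7r* and *Il2rg* of the slow-growing PNs (7.06 and 34.0 CPM). Its marker sum exceeded that of DRG5 (297 and 230 CPM) while its *Il7r* was below it (7.06 and 29.8 CPM). The markers were split, however. *Cd8a* (98.3 CPM in 1079 and 20.4 CPM in DRG5), *Lck*, *Cd247*, *Cd3d* and *Cd3e* were higher in 1079. *Cd4*, *Cd3g*, *Cd2*, *Klrb1c*, *Ncr1* and *Nkg7* (0.835 and 17.8 CPM) were lower. Among fast-growing PNs, 1191 had a higher T and NK cell sum than 1179 (178 and 48.3 CPM). *Il7r*, *Il2rb* and *Il2rg* were higher in 1179 (7.39, 6.07 and 48.3 CPM) than in 1191 (4.16, 2.72 and 36.6 CPM). Of the markers, *Nkg7* and *Ncr1* were also higher in 1179 (4.61 and 1.54 CPM) than in 1191 (1.13 and 0.529 CPM), and all others were higher in 1191. PN 1179 had the highest B cell sum among PNs. The part of lymphocytes in these receptors was not tested. *Il15ra*, the IL-15 receptor alpha chain, did not follow that order as closely: it was at 22.1, 38.0 and 36.3 CPM in controls, at 7.52, 23.1, 12.6, 6.68 and 14.3 CPM in slow-growing PNs, and from 5.46 to 7.97 CPM, with a median of 7.34, in fast-growing PNs. All PNs but 1198A lay below every control (log2 fold change −1.75 ± 0.35; edgeR, Benjamini-Hochberg adjusted p = 0.00229), and the call was kept without any one library but not with muscle and fat scores in the fit (−1.23; edgeR adjusted p = 0.141) or without DRG4 and DRG5 (−1.21; 0.338), where the value stayed below −1. *Il7*, the IL-7 ligand, was at 2.92, 11.7 and 8.23 CPM in controls and 1.28 to 4.76 CPM in PNs (log2 fold change −1.45 ± 0.37; edgeR, Benjamini-Hochberg adjusted p = 0.0112), with DRG3 again within the PN range. The *Il7* call was lost without DRG4 (edgeR adjusted p = 0.141) or DRG5 (−1.39; 0.0592), and the value was −0.06 with both left out; it was also lost with muscle and fat scores in the fit (edgeR adjusted p = 0.429). Some members at low level had the same pattern and were not tested: *Il22ra2*, the soluble IL-22 binding protein, was at 0, 6.60 and 12.9 CPM in controls and at most 0.376 CPM in PNs, and *Il13ra2*, the decoy receptor of IL-13, at 0, 1.47 and 1.25 CPM and at most 0.0756 CPM. Without DRG3, 21 members were called, 7 higher and 14 lower (37.5% of those tested, against 25.7% of all genes in that fit), whereas 7 were called without DRG4 (13.5%, against 14.9%) and 7 without DRG5 (13.5%, against 12.5%).

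**Figure D3:**
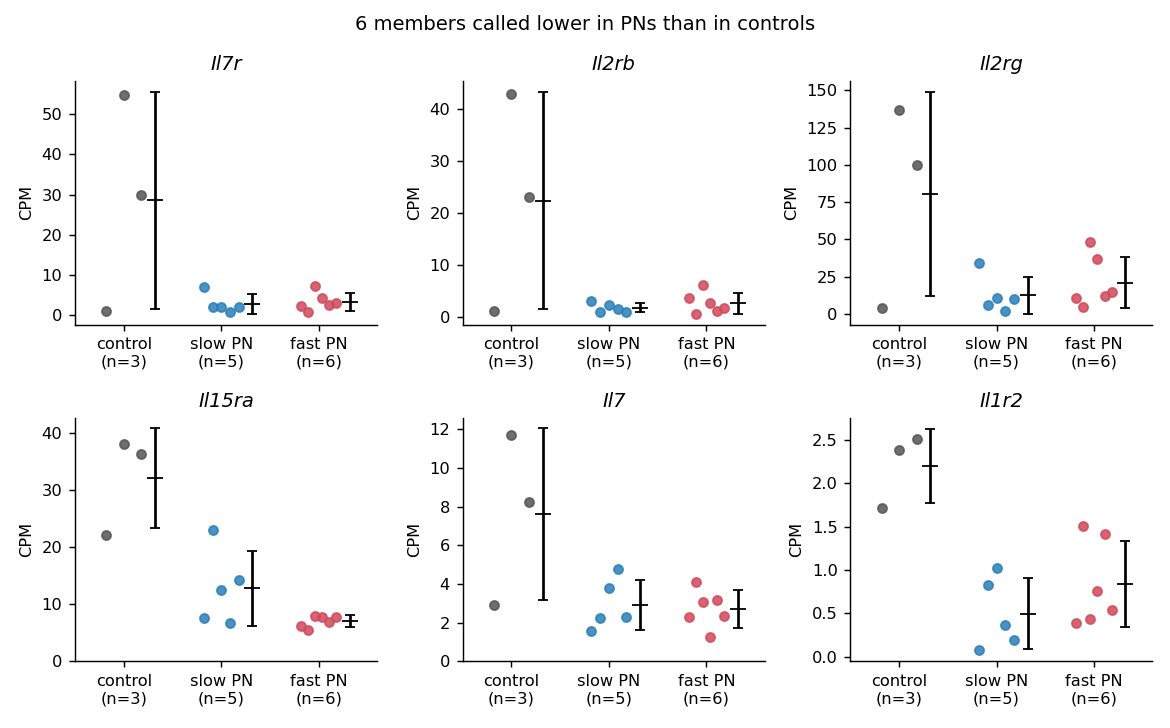
CPM (linear axes) of 6 members called lower in PNs, one point per library, with the group mean and SD in black beside the points. For *Il7r*, *Il2rb* and *Il2rg* the lowest control, DRG3 (1.03, 1.11 and 4.03 CPM), sits among the PNs, and *Il1r2* is the member without overlap.

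Slow-growing and fast-growing PNs were next compared with the same 3 controls, so these comparisons share their controls with each other and with the one above. In slow-growing PNs, 47 members were tested and 6 were called (12.8%, against 11.3% of all genes tested), 4 higher (8.51%, against 4.12%) and 2 lower (4.26%, against 7.13%), with 19 at an unadjusted p under 0.05 (40.4%, against 30.3%); the median log2 fold change was −0.46, against 0.04 over all genes. The 4 higher were *Il6st* (1.03 ± 0.26; edgeR, Benjamini-Hochberg adjusted p = 0.0365), *Il1f9* (1.25 ± 0.18; 0.00466), *Il5ra* (2.11 ± 0.32; 0.00548) and *Il22ra1* (0.00930). The 2 lower were *Il2rb* (−3.73 ± 0.88; edgeR, Benjamini-Hochberg adjusted p = 0.0310) and *Il1b* (−3.22 ± 0.86; 0.0463). The *Il1b* call was lost without any one slow-growing PN and without DRG4 or DRG5, the value being −1.68 without DRG5 (edgeR adjusted p = 0.297). That of *Il2rb* was lost without DRG4 (−2.83; edgeR adjusted p = 0.141), DRG5, 1079, 1198A, 1202 or 1206, and that of *Il6st* without DRG4, DRG5, 1198A or 1202, at values from 0.96 to 1.10. The *Il6st* call in slow-growing PNs was also lost under the length and GC correction (0.72; edgeR adjusted p = 0.116), and that of *Il1b* too (−2.87; 0.0724). With limma-voom, *Il2rb* and *Il1b* were not called in slow-growing PNs (limma adjusted p = 0.257 and 0.125). With muscle and fat scores in the fit none of the 6 calls was kept. There *Il6st* was at 0.47, *Il2rb* at −2.44, *Il1f9* at 1.21, *Il1b* at 0.01 and *Il5ra* at 2.37. Without DRG4 and DRG5 the values of these genes, in the same order, were 0.89, 0.62, 1.33, −0.68 and 2.87. *Il15ra*, *Il7r* and *Il1r2* came nearest to a call without one (edgeR, Benjamini-Hochberg adjusted p = 0.0625, 0.0632 and 0.0675). Each of them was called lower by DESeq2's Wald test and in one fit over all libraries, and *Il15ra* and *Il1r2* also with limma-voom. In fast-growing PNs, 51 were tested and 15 were called (29.4%, against 31.4% of all genes tested), 9 higher (17.6%, against 14.8%) and 6 lower (11.8%, against 16.7%), with 20 at an unadjusted p under 0.05 (39.2%, against 41.8%); the median was −0.21, against 0.02.

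The fast-growing calls higher than controls were *Il6st* (1.34 ± 0.13; edgeR, Benjamini-Hochberg adjusted p = 9.19e-05), *Il34* (1.90 ± 0.23; 0.000293), *Il22ra1* (0.000437), *Il1rap* (2.65 ± 0.36; 0.000648), *Il5ra* (1.98 ± 0.29; 0.000884), *Il1f9* (1.84 ± 0.40; 0.00701), *Il1bos*, *Il10rb* and *Il33*. Those lower were *Il15ra* (−2.27 ± 0.21; edgeR, Benjamini-Hochberg adjusted p = 8.43e-05), *Il7*, *Il7r*, *Il2rb*, *Il1r2* and *Il17rb*. In 11 of 51 members the fast-growing PNs did not overlap the controls (21.6%, against 32.7% of all genes), 9 higher (against 17.8%) and 2 lower (against 14.9%). In 7 of 47 the slow-growing PNs did not overlap them (14.9%, against 23.5%), 4 higher (against 11.6%) and 3 lower (*Il1r2*, *Il1r1* and *Il11ra1*, against 12.0%). The fast-growing change of *Il10rb* was small, 18.4, 24.8 and 17.9 CPM against 24.9 to 32.3 CPM (log2 fold change 0.48 ± 0.15; edgeR, Benjamini-Hochberg adjusted p = 0.0326). *Il17rb*, a receptor chain for IL-25, was at 12.7, 5.04 and 4.90 CPM in controls and 1.75 to 5.14 CPM in fast-growing PNs, which overlap (log2 fold change −1.12 ± 0.38; edgeR, Benjamini-Hochberg adjusted p = 0.0492); 141 of its exonic bases overlap *Actr8* on the opposite strand. The *Il17rb* call was lost without any one control, the value being −0.55 without DRG3 (edgeR adjusted p = 0.283), without any of 5 of the 6 fast-growing PNs and with limma-voom, no filter, the length and GC correction or one fit over all libraries. Calls of *Il1r2*, *Il10rb*, *Il7*, *Il7r* and *Il2rb* in fast-growing PNs were lost in 6, 5, 3, 3 and 3 of 9 fits that each left out 1 library. *Il13ra1*, *Il12a* and *Il11ra1* were the members nearest to a call that were not called (edgeR, Benjamini-Hochberg adjusted p = 0.0817, 0.0951 and 0.101). Of the partners, the gp130 ligand gene *Lif* (1.92 ± 0.60; edgeR, Benjamini-Hochberg adjusted p = 0.0365) and the inflammasome sensor *Nlrp3* (2.14 ± 0.64; 0.0306) were called in fast-growing PNs beside *Osmr* and *Ptprz1*, and *Irak1* was lower; in slow-growing PNs none was higher and *Csf2rb*, *Irak2* and *Irak1* were lower. With muscle and fat scores as covariates, 0 members and 0 genes were called in either comparison by edgeR. Summed fat markers were at least 4564 CPM in controls, at most 3210 CPM in slow-growing and at most 364 CPM in fast-growing PNs. These fits can therefore hardly separate fat content from group, and a call lost in them decides nothing about a member.

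**Figure D4:**
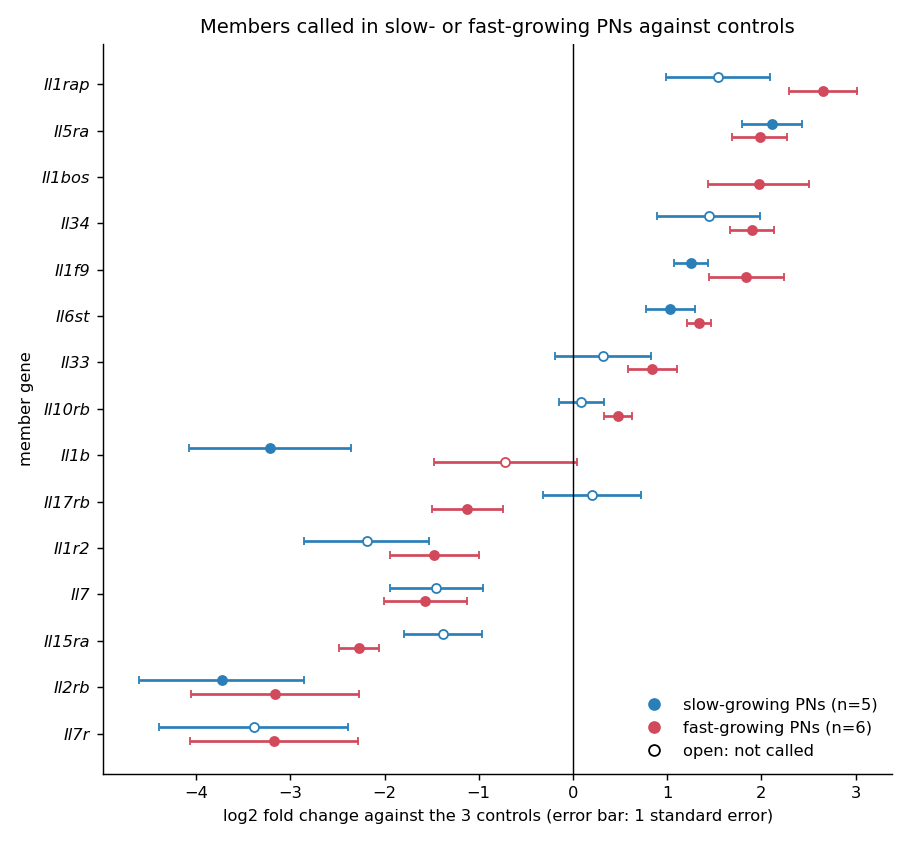
Log2 fold change against the 3 controls (horizontal axis, error bar 1 standard error) of the members called in slow-growing (blue) or fast-growing (red) PNs, open symbols being values not called; *Il22ra1* is left out because its controls had no counts, and *Il1bos* was tested only in fast-growing PNs. *Il6st*, *Il1f9*, *Il5ra* and *Il2rb* are filled in both colors, and *Il1b* is filled only for slow-growing PNs.

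Finally, fast-growing and slow-growing PNs were compared with each other. None of 46 tested members was called (edgeR, 11 at an unadjusted p under 0.05, lowest adjusted p = 0.0558), against 1.27% of all genes called (0.802% higher and 0.466% lower) and 20.4% at an unadjusted p under 0.05. By limma-voom 0 members were called, with 0.220% of all genes, and by DESeq2's Wald test 7 (15.2%), with 10.3% of all genes. In 0 of 46 did the PN groups not overlap, against 2.13% of all genes higher, 0.905% lower and 3.04% in all. The median log2 fold change was 0.43 over members and −0.03 over all genes, and 34 of 46 members lay above 0, against 46.5% of all genes. *Il1b* had the lowest p: 5 of 6 fast-growing PNs (4.08 CPM and above) exceeded every slow-growing PN (at most 2.76 CPM), and fast-growing PN 1071 (1.84 CPM) lay among them (log2 fold change 2.53 ± 0.59; edgeR, Benjamini-Hochberg adjusted p = 0.0558). *Il10ra*, the IL-10-binding receptor chain of leukocytes, was at 3.27, 10.6, 4.49, 3.48 and 1.73 CPM in slow-growing PNs and from 8.05 to 30.1 CPM, with a median of 19.0, in fast-growing PNs (log2 fold change 1.98 ± 0.48; edgeR, Benjamini-Hochberg adjusted p = 0.0577). *Il13ra1*, a receptor chain for IL-13 and IL-4, was at 9.04, 28.3, 9.50, 10.1 and 13.1 CPM and from 19.3 to 44.7 CPM, with a median of 31.9 (log2 fold change 1.21 ± 0.33; edgeR, Benjamini-Hochberg adjusted p = 0.0749). In both receptors PN 1198A was the slow-growing PN that reached into the fast-growing range. *Il6st* (log2 fold change 0.31 ± 0.17; edgeR, Benjamini-Hochberg adjusted p = 0.323), *Il34* (0.46 ± 0.38; 0.518), *Il1rap* (1.11 ± 0.40; 0.145) and *Il5ra* (−0.12 ± 0.17; 0.698) were not called; these p-values do not show that the groups are alike.

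Without slow-growing PN 1198A, 8 of 48 members tested (16.7%) and 7.65% of all genes were called between the PN groups; the members were *Il10ra*, *Il10rb*, *Il13ra1*, *Il1b*, *Il1rap*, the IL-36 receptor gene *Il1rl2* and the IL-4 receptor gene *Il4ra* higher and *Il17rb* lower in fast-growing PNs. Without PN 1071, *Il10ra* and *Il1b* were called (4.44%, against 2.43% of all genes), and without PN 1203, *Il16* and *Il17rb* (4.17%, against 3.70%). Summed macrophage markers (10 genes) were 462, 1480, 486, 174 and 414 CPM in slow-growing PNs, with 1198A highest, and 734 to 2024 CPM in fast-growing PNs, with *Lyz2* the largest contributor (357 to 1153 CPM in fast-growing PNs). None of the 10 genes was called between the PN groups, and *Cd163* and *Mertk* had fold changes in the other direction (log2 −0.77 ± 0.47 and −0.20 ± 0.37; edgeR, Benjamini-Hochberg adjusted p = 0.391 and 0.771). Among PNs, *Il10ra* and the macrophage sum were both lowest in the slow-growing PNs other than 1198A, and the part of macrophages in *Il10ra*, *Il1b* and *Il13ra1* was not tested.

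*Il31ra*, the IL-31 receptor chain that pairs with *Osmr* and marks itch-sensing neurons, was spread widely among PNs of both groups. It was at 3.34, 4.03 and 4.06 CPM in controls, at 5.85, 6.91, 17.2, 51.0 and 3.28 CPM in slow-growing PNs, and from 0.605 to 38.8 CPM, with a median of 7.64, in fast-growing PNs. The highest PNs were 1203, 1214, 1071 and 1202, and the lowest was 1191. It was not called over all PNs (log2 fold change 2.08 ± 1.06; edgeR, Benjamini-Hochberg adjusted p = 0.165). Sensory neuron markers summed to 10357 CPM in 1203, the highest of all libraries, and to 20.2 CPM in 1191, the lowest; the part of neuron content in *Il31ra* was not tested. In between the match was loose: DRG3, with 4940 CPM of these markers, had *Il31ra* at 3.34 CPM, and PN 1214, with 4420 CPM, at 38.8 CPM. *Cysltr2*, a marker of the itch-sensing neurons, was highest in the same PNs 1203, 1214, 1071 and 1202 (27.4, 24.5 and 18.8 CPM in the first 3) and at 1.11 to 2.93 CPM in controls (log2 fold change 2.54 ± 0.88; edgeR, Benjamini-Hochberg adjusted p = 0.0460); *Nppb*, another, was called higher too (3.98 ± 1.26; 0.0314), at 0 to 0.313 CPM in controls and 0.227 to 4.94 CPM in PNs. Of the 5 genes on that list, *Osmr* was called too, whereas *Sst* and *Hrh1* were not (edgeR, Benjamini-Hochberg adjusted p = 0.247 and 0.474), and *Hrh1* was highest in PN 1191 (5.82 CPM), where *Il31ra* was lowest, and lowest among PNs in 1071 (1.57 CPM). The part of these neurons in *Il31ra* was not tested either. *Osmr* did not share this spread, with 78.3 to 139 CPM in slow-growing and 137 to 195 CPM in fast-growing PNs.

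**Figure D5:**
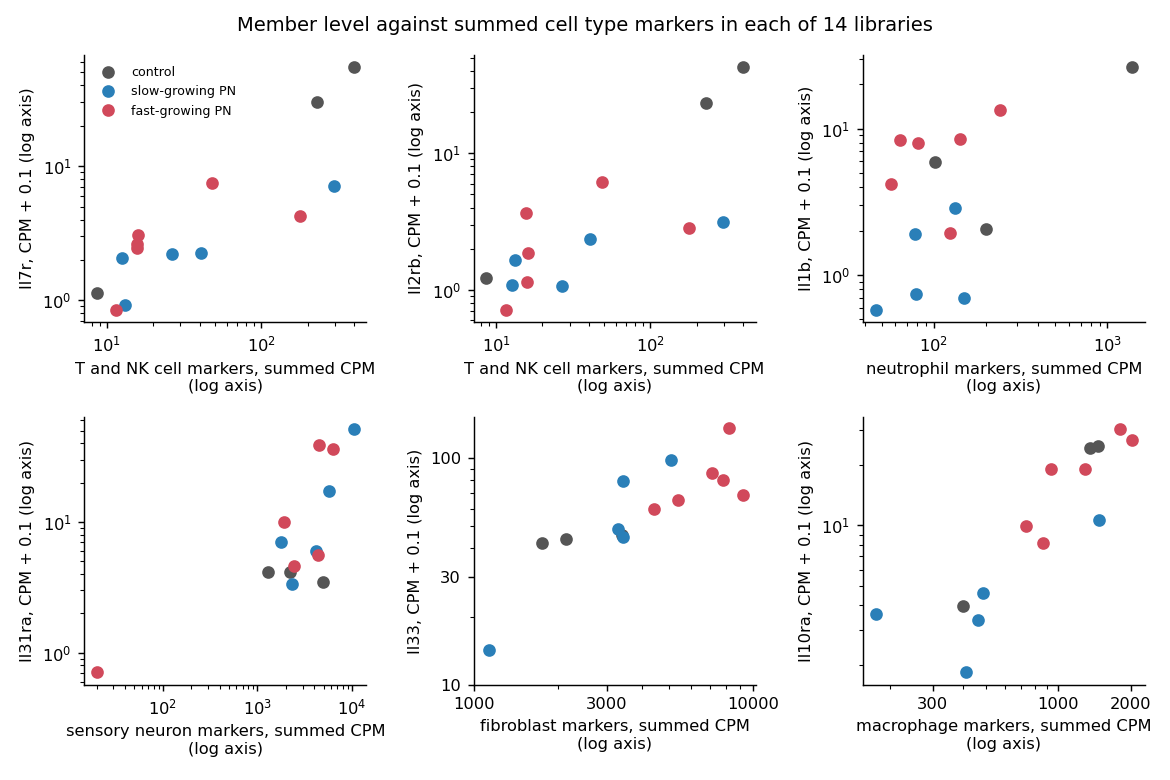
Level of 6 members (vertical, CPM + 0.1, log axis) against summed marker CPM of a cell type (horizontal, log axis) in each of the 14 libraries, colored by group (in the *Il33* panel DRG3 lies under slow-growing points). DRG4 is highest for T and NK cell markers and *Il7r* (54.9 CPM), DRG5 for neutrophil markers and *Il1b* (26.3 CPM), and PN 1203 for sensory neuron markers and *Il31ra* (51.0 CPM), whereas *Il33* is highest in PN 1191 (136 CPM) and fibroblast markers in PN 1216 (9222 CPM).

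For the members on which these results turn, the genes outside the group with the most similar pattern were searched by Pearson correlation of log2 CPM over the 14 libraries, which share controls and PNs that stand apart; the values describe the closest of 16232 genes and carry no test. *Il1rap* was closest to *Cttnbp2nl* (r = 0.991) and *Reln* (0.986), *Il34* to *Zcchc24* (0.987) and *P2rx7* (0.980), *Il6st* to *Adam11* (0.978), and *Il5ra* to *Ddx17* (0.986). *Il7r* was closest to *Ctla4*, a T cell gene (0.977), and *Il31ra* to *Lpar3* (0.968) and *Npy2r* (0.956). *Il1f9* was closest to *Acmsd* (0.952), *Il22ra1* to *Oaz1* (0.969) and *Il1b* to *Slc14a1* (0.907).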

How the data were processed

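Total RNA of 3 control DRGs with nerves and 11 PNs was amplified with a NuGEN Ovation kit before sequencing. Per the labels, the authors used TopHat2 2.0.9, featureCounts 1.5.2 and genome build mm10, and deposited whole-number counts per gene, without normalization; the strand setting of the counting is not given in the sources used here. The log2 values that the authors also deposited were not used. All 14 columns of the count table belong to labelled samples.

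Fits used R 4.3.3 and edgeR 4.0.16 on the counts of all genes kept by filterByExpr, with TMM factors, the quasi-likelihood test, Benjamini-Hochberg adjustment over all genes tested, a threshold of 0.05 and only the libraries of each comparison. Standard errors were derived from the F statistic. Levels are TMM-scaled CPM. Positions, lengths and overlaps came from GENCODE's annotation of mm10, in which all 83 members matched; promoters came from RefSeq.

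The members, lists and markers were chosen with earlier results of these data known. Genes named are those called in at least 1 comparison, *Il1b*, *Il6*, *Il33*, *Il34*, *Il1r1*, *Il1rl1* and *Il6st*, and the 3 members with the lowest p not called per comparison; others were chosen after their values were seen. In simulated counts with 200 genes changed 4-fold, edgeR recovered 67.5% for PNs versus controls (16283 genes), 62.0% for slow-growing PNs versus controls (15714), 74.5% for fast-growing PNs versus controls (16037) and 76.5% for fast-growing versus slow-growing PNs (15465), with 5, 6, 10 and 4 false calls. A setting with as large a share of genes changed as was called for PNs versus controls (26.3%) was not tested. Alternatives were DESeq2 1.42.0 size factors and Wald test, limma 3.58.1 (voom), no filter, one fit over all libraries, muscle and fat scores (mean log2(CPM + 1)) as covariates, unscaled CPM and each library left out, and, chosen after seeing the data, a length and GC correction and controls DRG4 and DRG5 left out. Figures used matplotlib 3.10.9. Some genes of the lists are not reported here.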

Additional observations from a re-analysis of the deposited data

Results flagged for a closer look

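Within the slow-growing (n = 5) and fast-growing (n = 6) PNs, each named member was examined for a library whose gap to its nearest neighbor takes up most of the group's range (Dixon's test). Of 50 gene and group pairs, 7 had such a library. Chance gives about 1 in 20 if values are normally distributed and pairs are independent. Here linear CPM were used and the pairs share libraries, so that rate is only a guide and an excess is not established. In slow-growing PN 1079, *Il7r* was at 7.06 CPM (next 2.14) and *Il2rg* at 34.0 CPM (next 10.8). In slow-growing PN 1198A, *Il13ra1* was at 28.3 CPM (next 13.1). In fast-growing PN 1191, *Il33* was at 136 CPM (next 85.8) and *Il1rl1*, the IL-33 receptor, at 18.8 CPM (next 9.43). In fast-growing PN 1214, *Il12a* was at 0.891 CPM (next 0.378), and in fast-growing PN 1053, *Il10rb* was lowest at 24.9 CPM (next 29.8).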

How the results depend on the processing

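For PNs versus controls, 13 members were called; the count was 2 with muscle and fat scores as covariates (3.92%, against 2.68% of all genes in that fit) and 3 with DRG4 and DRG5 left out (5.66%, against 3.70%), and it ranged from 7 to 21 when each library was left out. For slow-growing PNs versus controls, 6 were called, against 18 by DESeq2's Wald test (38.3%, against 22.5% of all genes), 14 in one fit over all libraries (27.5%, against 20.1%) and 0 with the covariates, as for all genes. Over libraries left out the count ranged from 3 to 19. It was 19 without DRG3 (35.2%, against 15.3% of all genes). It was 3 without DRG4 (6.12%, against 4.27%), DRG5 (6.25%, against 3.74%) or PN 1202 (6.38%, against 6.73%). For fast-growing PNs versus controls, 15 were called, against 0 with the covariates, as for all genes, and 9 without DRG4 and DRG5 (17.3%, against 9.30%), with a range of 7 to 21 (7 or 13.5% without DRG5, against 20.4% of all genes; 9 without DRG4; 21 or 37.5% without DRG3, against 31.9%). Between the PN groups, 0 were called, against 7 by DESeq2's Wald test, with a range of 0 to 8. Fits that leave out libraries have fewer samples, and beyond that the cause was not tested.

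Without DRG4 and DRG5, the log2 fold changes that changed sign were, for PNs versus controls, *Il7r* 1.58, *Il2rb* 0.99, *Il2rg* 2.08, *Il1b* 1.20, *Il12a* 0.95 and *Il17ra* 0.67; for slow-growing PNs, *Il2rb* 0.62 and *Il7r* 1.42; and for fast-growing PNs, *Il7r* 1.68, *Il2rb* 1.22 and *Il12a* 1.04. With the covariates, which can hardly be separated from group, they were *Il1b* 0.01 in slow-growing PNs and *Il1r2* 2.04, *Il17rb* 0.61 and *Il12a* 1.13 in fast-growing PNs. For PNs versus controls, *Il1b* ranged from −1.82 to 0.23 over libraries left out, the latter without DRG5. Among the 50 pairs of named gene and comparison that were refitted, no other changed sign; other pairs, such as *Il2rg* in slow-growing or fast-growing PNs, were not refitted. With CPM on unscaled totals, all 75 group means of named genes moved by less than 1 SD. At these depths, members under about 0.3 CPM in a single library cannot be told from absent in that library. Over the control group together, 3 counts correspond to 0.0933 CPM. The replicate labels of the groups do not match, and no paired analysis was possible because the groups share no replicate number.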
